A study of Mus musculus with 28 samples.

Results

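mmu-miR-196a-5p, mmu-miR-196b-5p, mmu-miR-10a-5p and mmu-miR-10b-5p are the main (5p) products of miRNA genes that lie inside the Hox gene clusters. They made up 4 of the 569 miRNA rows in the deposited table, and all 4 had a value on every one of the 28 arrays. They were chosen by name, with earlier results of these data known. The study profiled miRNAs on Agilent mouse arrays in cartilage and in subchondral bone, the bone beneath it, which were cut by laser from the medial tibial plateau of adult male C57BL6 mice. The design addresses which miRNAs differ early and later in a surgical model of osteoarthritis. In destabilization of the medial meniscus (DMM) the ligament that holds the medial meniscus to the tibia was cut on both sides, which leaves the joint unstable. In the sham operation the same ligament was exposed on both sides and left whole. Mice were 10 to 12 weeks old at surgery and tissue was taken 1 or 6 wk later, so sham mice at 6 wk were also older than those at 1 wk. The 8 groups were DMM and sham at each time in each tissue. In cartilage each array carried RNA pooled from 3 mice, with 3 arrays in every one of the 4 groups. In bone each array carried RNA of a single mouse, with 4 arrays in every one of the 4 groups, and the mice are called here by number. Bone titles mark the mice as wild type. Cartilage titles give no genotype, and the surgery protocol also names Jaffa mice, so the genotype of the cartilage pools rests on the strain label, which reads C57BL6 for every array. Every sham group had joint surgery, and no unoperated group was part of the comparisons. The source field was followed for the tissue, since another label field names bone for the arrays that the source gives as cartilage.

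miRNAs are short RNAs that lower the output of mRNAs, which they find largely through the seed, bases 2 to 8 counted from the 5′ end. Hox genes encode transcription factors that give body segments and limb segments their identity, and their miRNAs are transcribed from the same clusters. miR-196 is known for directing the cleavage of Hoxb8 mRNA in the embryo and miR-10 for repressing Hox genes near its own locus. Expression of both families in adult tissue often keeps a trace of position along the body.

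The mature sequences are shown because both pairs differ at 1 base outside the seed, which bears on how far rows of a pair can be read as separate measurements. Capitals mark the seed.
mmu-miR-196a-5p: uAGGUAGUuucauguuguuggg
mmu-miR-196b-5p: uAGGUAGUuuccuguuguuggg
mmu-miR-10a-5p: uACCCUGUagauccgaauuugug
mmu-miR-10b-5p: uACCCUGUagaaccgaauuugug
The sequences and positions are those of RefSeq on GRCm38.p6. mmu-miR-196a-5p and mmu-miR-196b-5p matched at 21 of 22 bases and differed by A12C, with miR-196a first and positions counted from the 5′ end. mmu-miR-10a-5p and mmu-miR-10b-5p matched at 22 of 23 bases and differed by U12A, with miR-10a first. Of the 466 table rows matched by name to a RefSeq sequence, 2 carried the seed AGGUAGU and 2 carried ACCCUGU, in each case the pair itself. mmu-miR-196a-5p comes from 2 genes, Mir196a-1 at chr11:96265187-96265208 (plus strand), which lies between Hoxb13 and Hoxb9, and Mir196a-2 at chr15:102973365-102973386 (plus strand), between Hoxc10 and Hoxc9. An array row cannot tell these genes apart, since their mature sequence is the same. mmu-miR-196b-5p lies at chr6:52230129-52230150 (minus strand) between Hoxa9 and Hoxa10. mmu-miR-10a-5p lies at chr11:96317186-96317208 (plus strand) between Hoxb5 and Hoxb4, within the annotated span of Hoxb3. mmu-miR-10b-5p lies at chr2:74726074-74726096 (plus strand) next to Hoxd8, within the annotated spans of Hoxd3 and Hoxd4. How far the probe of one miRNA reads the other of its pair was not tested.

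Sequence relatives outside the Hox clusters are shown because they share letters with these miRNAs at a shifted position. Whether probes of such relatives read each other was not tested. Capitals here mark the letters shared with a miRNA above.
let-7a-5p: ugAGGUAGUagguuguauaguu
miR-100-5p: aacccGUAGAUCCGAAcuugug
The let-7 line carries the 7 letters of the miR-196 seed at positions 3 to 9, 1 base further along than in miR-196, and 8 rows of the table did so. These were let-7a, let-7b, let-7c, let-7d, let-7f, let-7g, let-7i and miR-98. miR-100-5p shares a run of 11 bases with mmu-miR-10a-5p and, because of the changed base, a run of 5 with mmu-miR-10b-5p.

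Values are log2 signals as deposited, so a difference of 1 is a doubling, and levels of different miRNAs are not set against each other because each has its own probes. The median array signal lay between 6.26 and 6.32 in cartilage and between 6.17 and 6.39 in bone. The summed signal of cartilage markers (both arms of miR-140 and miR-455, 4 of 4 measured in cartilage and 3 of 4 in bone) was 13.61 to 14.22 on the log2 scale in arrays sourced from cartilage and 9.54 to 10.92 in those from bone. Bone arrays spread more than cartilage pools, with a median within-group SD over all rows of 0.333 against 0.172. Mice 68 and 96 of the bone sham group at 1 wk correlated least with their own group (mean Pearson r of 0.866 and 0.908 over all rows). Bone differences between DMM and sham at 1 wk, and between sham times, are also given without each of them. Bone levels, correlations and the main axis of variation between bone arrays include both mice.

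miR-196a, miR-196b and miR-10b had higher signals in cartilage than in bone, and miR-10a was the reverse. Over the 12 cartilage arrays mmu-miR-196a-5p ran from 7.98 to 8.97 with a median of 8.58, and over the 16 bone arrays from 5.90 to 7.84 with a median of 6.49. The means were 8.52 ± 0.27 (SD, n = 12) and 6.58 ± 0.58 (SD, n = 16), 3.84-fold apart, and no bone array reached the lowest cartilage array. mmu-miR-10b-5p ran from 7.69 to 8.52 in cartilage (median 8.18) and from 5.65 to 7.18 in bone (median 6.19). Its means of 8.19 ± 0.24 (SD, n = 12) and 6.20 ± 0.46 (SD, n = 16) were 3.97-fold apart, again with no overlap. Its bone median lay within the range of the bone array medians. mmu-miR-196b-5p ran from 6.93 to 7.82 in cartilage (median 7.53) and from 5.79 to 7.63 in bone (median 6.35). Its means of 7.45 ± 0.30 (SD, n = 12) and 6.43 ± 0.55 (SD, n = 16) were 2.03-fold apart, and the highest bone arrays lay inside the cartilage range. mmu-miR-10a-5p ran from 5.52 to 6.44 in cartilage (median 5.89) and from 7.01 to 8.93 in bone (median 7.67). Its means of 5.93 ± 0.25 (SD, n = 12) and 7.71 ± 0.46 (SD, n = 16) were 3.45-fold apart with bone higher and no overlap, and most of its cartilage values lay below the array medians. The miR-10 pair, 1 base apart, thus lay on opposite sides of the tissue comparison.

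Among the 359 rows with values in both tissues, 10.3% had every cartilage array above every bone array, as miR-196a and miR-10b did, and 12% had every cartilage array below every bone array, as miR-10a did. These differences are described with no test, because each tissue holds its own set of rows and the sources used here do not say whether both were normalized together. Under quantile normalization the cartilage minus bone differences on the log2 scale were 2.13 for miR-196a, 1.23 for miR-196b, -1.64 for miR-10a and 2.17 for miR-10b. Centring on the 75th percentile moved the median difference of all shared rows from -0.06 to 0.29, and gave 2.29, 1.37, -1.43 and 2.34 in the same order. Both scalings kept the sign of all 4 differences, and kept the ranges apart for the same 3 miRNAs.

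**Figure D1:**
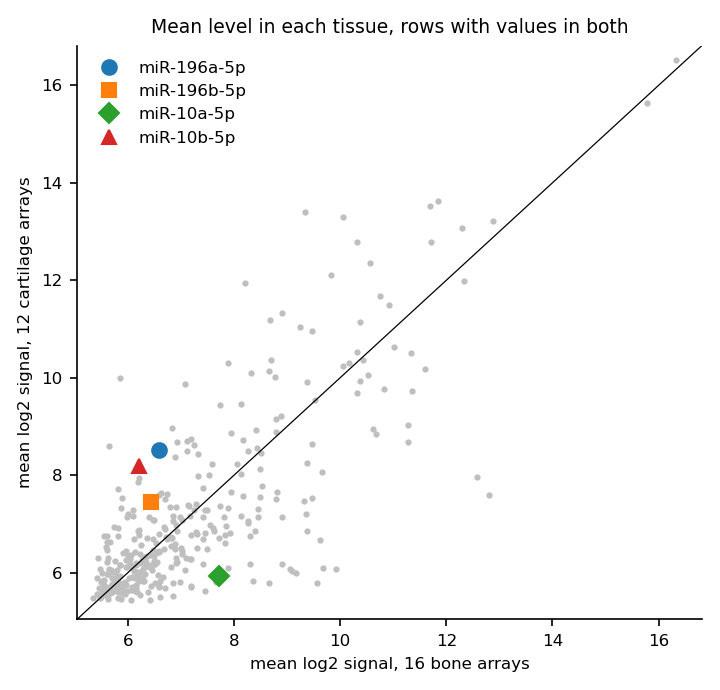
Mean log2 signal of each row over the 16 bone arrays (x axis) against its mean over the 12 cartilage arrays (y axis) for the 359 rows with values in both tissues, with equal levels on the line and the 4 Hox cluster miRNAs in colour. miR-196a, miR-196b and miR-10b lie above the line and miR-10a, at 7.71 in bone and 5.93 in cartilage, lies below it.

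The order of the 8 group means was alike for miR-196a and miR-196b in cartilage. mmu-miR-196a-5p was highest in sham cartilage at 6 wk (8.79 ± 0.15, SD, n = 3), followed by sham at 1 wk (8.61 ± 0.07, SD, n = 3), DMM at 6 wk (8.52 ± 0.19, SD, n = 3) and DMM at 1 wk (8.15 ± 0.15, SD, n = 3). Sham at 1 wk and DMM at 6 wk overlapped, and the other neighbours in cartilage did not. The bone groups followed at 6.90 ± 0.66 (DMM, 1 wk), 6.88 ± 0.72 (sham, 1 wk), 6.27 ± 0.33 (sham, 6 wk) and 6.26 ± 0.27 (DMM, 6 wk; SD, n = 4 each), and each overlapped its neighbour. For mmu-miR-196b-5p the cartilage means in the same order were 7.74 ± 0.12, 7.63 ± 0.09, 7.40 ± 0.10 and 7.04 ± 0.12 (SD, n = 3 each), and here both sham groups overlapped each other but not DMM. Its bone means ran from 6.15 ± 0.26 (DMM, 6 wk) to 6.72 ± 0.63 (DMM, 1 wk; SD, n = 4), and the latter overlapped DMM cartilage at 1 wk. mmu-miR-10a-5p was highest in bone, from 8.17 ± 0.67 (sham, 1 wk) through 7.77 ± 0.18 (DMM, 1 wk) and 7.47 ± 0.18 (sham, 6 wk) to 7.44 ± 0.31 (DMM, 6 wk; SD, n = 4 each), with every neighbour overlapping. Cartilage followed at 6.24 ± 0.18 (sham, 6 wk), 6.01 ± 0.10 (sham, 1 wk), 5.78 ± 0.12 (DMM, 6 wk) and 5.68 ± 0.14 (DMM, 1 wk; SD, n = 3 each), where only both DMM groups overlapped. mmu-miR-10b-5p had cartilage means of 8.40 ± 0.15 (sham, 6 wk), 8.32 ± 0.15 (sham, 1 wk), 8.05 ± 0.09 (DMM, 1 wk) and 7.98 ± 0.25 (DMM, 6 wk; SD, n = 3 each), and bone means from 5.85 ± 0.25 (DMM, 6 wk) to 6.48 ± 0.63 (sham, 1 wk; SD, n = 4). Within cartilage its sham groups overlapped each other and its DMM groups overlapped each other, while sham at 1 wk and DMM at 1 wk were apart.

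**Figure D2:**
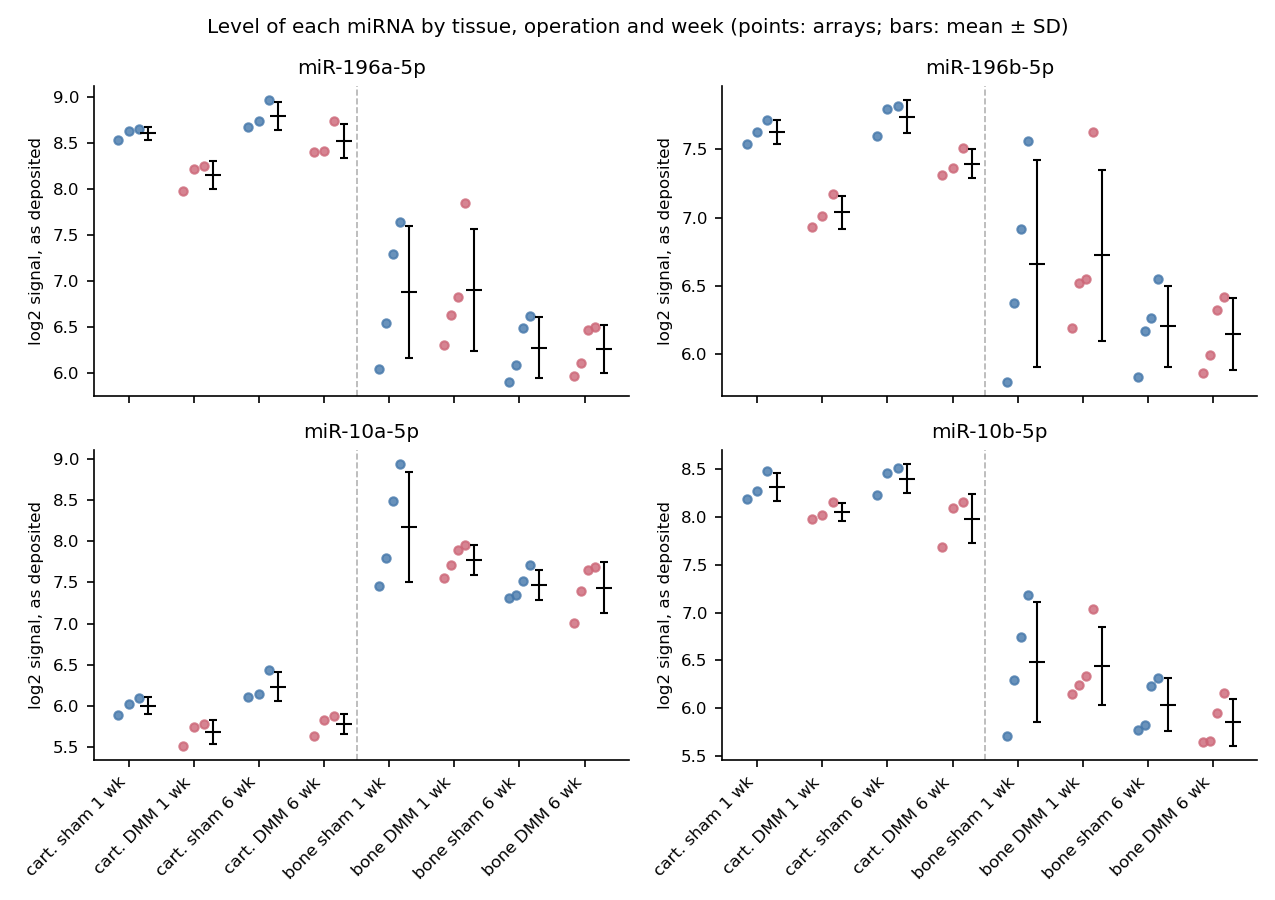
Log2 signal of each miRNA (y axis, scaled per panel) in the 8 groups of tissue, operation and time (x axis; cart., cartilage), with 1 point per array, sham in blue, DMM in red, and bars for mean ± SD of 3 cartilage pools or 4 mice. In cartilage the DMM points lie under the sham points of the same time apart from 1 of miR-196a at 6 wk (8.74), while in bone the operations overlap for every miRNA.

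In cartilage 1 wk after surgery both miR-196 rows were lower in DMM than in sham and passed the test across all rows, while both miR-10 rows had lower means that did not pass. The 3 sham pools of mmu-miR-196a-5p read 8.65, 8.53 and 8.64 and the 3 DMM pools 8.25, 8.22 and 7.98. The DMM pools all lay under the sham pools, and miR-196a fell by 0.45 ± 0.13 (SE) on the log2 scale, 1.37-fold, with a limma adjusted p of 0.0188. mmu-miR-196b-5p read 7.63, 7.54 and 7.72 in sham and 7.17, 7.01 and 6.93 in DMM, again without overlap. It was 1.51-fold lower (limma adjusted p = 0.00272), the 10th largest fall among the 438 cartilage rows. Earlier results of these data, this value among them, were known when the 4 miRNAs were chosen. The differences and counts of the 4 are therefore descriptions and no independent support. In these bulk pools, fewer cells of a type and less RNA per cell cannot be told apart.

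At the same time mmu-miR-10a-5p read 6.10, 6.02 and 5.90 in sham and 5.79, 5.52 and 5.74 in DMM, which do not overlap. Its difference was -0.32 ± 0.12 (SE; 95% interval -0.59 to -0.059), with a limma adjusted p of 0.0681. mmu-miR-10b-5p read 8.28, 8.19 and 8.48 in sham and 7.98, 8.16 and 8.02 in DMM, with the highest DMM pool just under the lowest sham pool. Its difference was -0.27 ± 0.14 (SE; 95% interval -0.57 to 0.034), with a limma adjusted p of 0.168. So 2 of 4 were called, both lower, and the median difference of the 4 was -0.39 against -0.02 over all rows. Of the 438 rows tested, 27.9% were called, 12.1% as lower and 15.8% as higher. All 4 had every DMM pool below every sham pool, as did 23.3% of all rows, while 24.9% had every DMM pool above. The split of called rows moved with scaling, from 69 higher and 53 lower as deposited to 60 and 75 under quantile normalization and 56 and 86 when centred on the 75th percentile.

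The call for miR-196b at 1 wk held with any 1 of the 12 cartilage arrays left out. That for miR-196a was lost without sham replicate 1 (-0.43, limma adjusted p = 0.0643), sham replicate 3 (-0.44, 0.0656) or DMM replicate 3 (-0.37, 0.0935). The 122 rows called in all became 42 when DMM replicate 3 was left out and 56 when sham replicate 3 was, both at 1 wk. miR-10a passed when arrays were centred on the 75th percentile (-0.41, limma adjusted p = 0.0216) or weighted by quality (-0.40, 0.00970). Of the 438 rows, the centring called 142 and the weights 172.

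In cartilage at 6 wk miR-196b was again lower in DMM than in sham, and here miR-10a rather than miR-196a was the other row past the threshold. mmu-miR-196b-5p read 7.60, 7.82 and 7.80 in sham and 7.31, 7.36 and 7.51 in DMM, and its groups did not overlap. It fell by 0.34 ± 0.11 (SE) on the log2 scale, 1.27-fold, with a limma adjusted p of 0.0464, close to the threshold of 0.05. mmu-miR-10a-5p read 6.12, 6.15 and 6.44 in sham and 5.64, 5.87 and 5.83 in DMM, also apart. It fell by 0.45 ± 0.12 (SE), 1.37-fold, with a limma adjusted p of 0.0260.

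mmu-miR-196a-5p read 8.67, 8.97 and 8.74 in sham at 6 wk and 8.42, 8.41 and 8.74 in DMM, so that DMM replicate 3 lay within the sham range and the other two below it. Its difference was -0.27 ± 0.13 (SE; 95% interval -0.55 to -0.0011), with a limma adjusted p of 0.129. mmu-miR-10b-5p read 8.46, 8.52 and 8.23 in sham and 8.10, 8.16 and 7.69 in DMM, with no overlap, and here DMM replicate 3 was the lowest of all 12 cartilage arrays. Its difference was -0.42 ± 0.14 (SE; 95% interval -0.72 to -0.12), with a limma adjusted p of 0.0543. The same pool thus stood highest of its group for miR-196a and lowest for miR-10b. The count was again 2 of 4 called, both lower, with a median difference of -0.38 against -0.04 over all rows. Among the 438 rows 16.9% were called, 7.31% as lower and 9.59% as higher. In 3 of 4 miRNAs every DMM pool lay below every sham pool, as in 18% of rows, while 17.4% of rows had every DMM pool above.

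Both calls at 6 wk depended on single arrays. That for miR-10a was lost without DMM replicate 1 (-0.38, limma adjusted p = 0.0802), DMM replicate 2 (-0.50, 0.0607), sham replicate 2 (-0.49, 0.0595) or sham replicate 3 (-0.35, 0.101) of that time. That for miR-196b was lost with 8 of the 12 arrays left out in turn. These were DMM replicates 1 (-0.30, limma adjusted p = 0.113) and 2 (-0.33, 0.153) and sham replicates 2 (-0.30, 0.163) and 3 (-0.32, 0.128) at 6 wk, and at 1 wk sham replicates 1 (0.0676), 2 (0.0591) and 3 (0.0504) and DMM replicate 2 (0.0613), which leave the difference at -0.34. All rows called numbered 74 with every array. Leaving out an array of that time gave 44 (DMM replicate 1) or 20 (DMM replicate 2) and 166, 27 or 31 (sham replicates 1, 2 and 3). Both calls were also lost in a fit to the 2 groups at 6 wk alone (limma adjusted p of 0.113 for miR-196b and 0.0900 for miR-10a), and that for miR-196b when rows below the median level were left out (0.0560). Array weights brought miR-196a (-0.38, 0.0206) and miR-10b (-0.41, 0.0232) past the threshold, and centring on the 75th percentile did so for miR-10b (-0.46, 0.0444). Of the 438 rows, weights called 189 and the centring 73.

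**Figure D3:**
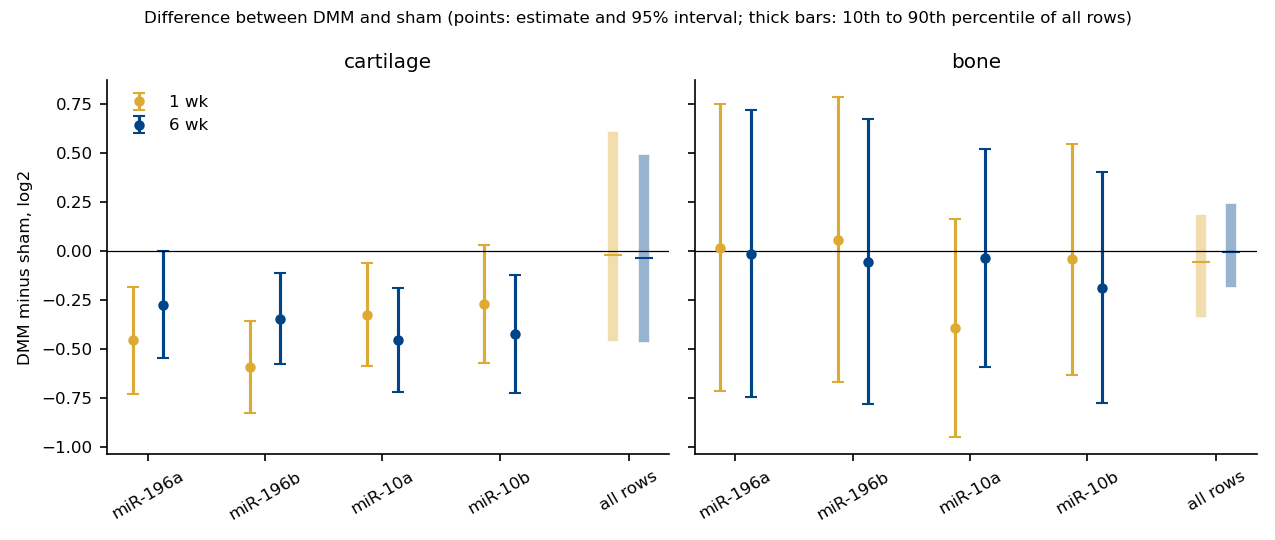
DMM minus sham on the log2 scale (y axis) for each miRNA in cartilage (left) and bone (right) at 1 wk (yellow) and 6 wk (blue), with 95% intervals from the limma fit. Thick bars span the 10th to 90th percentile of all rows tested, with a line at their median. All 8 cartilage points lie below 0, from -0.59 to -0.27, and every bone interval spans 0.

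No miRNA of the 4 passed a test of whether the DMM effect in cartilage changed between times. The effect at 6 wk minus that at 1 wk was 0.18 for miR-196a (95% interval -0.21 to 0.57), 0.25 for miR-196b (-0.08 to 0.57), -0.13 for miR-10a (-0.50 to 0.24) and -0.15 for miR-10b (-0.58 to 0.27). The limma adjusted p was 0.999 for each, and 0% of the 438 rows were called, with 13 at an unadjusted p under 0.05. That miR-196a passed only at 1 wk and miR-10a only at 6 wk is therefore not shown to be a difference between times. In sham cartilage the step from 1 to 6 wk was between 0.09 (miR-10b) and 0.23 (miR-10a; 95% interval -0.03 to 0.49), with limma adjusted p of 0.328 to 0.893. None of the 4 passed, against 0.228% of rows.

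In bone none of the 4 passed the test for a DMM effect at either time. At 1 wk mmu-miR-10a-5p read 8.48 in mouse 66, 7.46 in mouse 68, 7.79 in mouse 86 and 8.93 in mouse 96 of the sham group. In DMM it read 7.89 in mouse 67, 7.95 in mouse 77, 7.55 in mouse 85 and 7.71 in mouse 93. The DMM mice fell inside the sham range, which spanned 1.47. Its difference was -0.39 (95% interval -0.95 to 0.16), -0.63 without mouse 68 and -0.14 without mouse 96.

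mmu-miR-196a-5p read 7.30, 6.04, 6.54 and 7.64 in the same 4 sham mice and 7.84, 6.82, 6.30 and 6.63 in the same DMM mice. mmu-miR-196b-5p read 6.92, 5.79, 6.37 and 7.57 in sham and 7.63, 6.55, 6.19 and 6.52 in DMM. mmu-miR-10b-5p read 6.74, 5.71, 6.30 and 7.18 in sham and 7.04, 6.33, 6.15 and 6.24 in DMM. In all 4 miRNAs mouse 96 was the highest sham mouse and mouse 68 the lowest, and mouse 67 was the highest DMM mouse for 3 of the 4, miR-10a being the exception. The differences were 0.02 for miR-196a (95% interval -0.71 to 0.75), 0.06 for miR-196b (-0.67 to 0.79) and -0.04 for miR-10b (-0.63 to 0.55). Without mouse 68 they were -0.26, -0.23 and -0.30, and without mouse 96 they were 0.27, 0.36 and 0.19, so single mice set their sign. The limma adjusted p was 0.999 for all 4, and 0% of the 490 bone rows were called, with 3 at an unadjusted p under 0.05. With array weights miR-10a was called (-0.66, limma adjusted p = 0.0336), and miR-196a and miR-196b turned to -0.52 and -0.35 without a call. Weights called 38 of the 490 bone rows, and their estimation stopped before its tolerance in bone. None of the 4 had groups apart, against 0.612% of rows with every DMM mouse below every sham mouse and 0.816% with every DMM mouse above.

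At 6 wk the bone groups lay closer together. mmu-miR-10a-5p read 7.71, 7.31, 7.34 and 7.51 in sham mice 10, 12, 22 and 26 and 7.65, 7.69, 7.01 and 7.40 in DMM mice 5, 6, 21 and 25. mmu-miR-10b-5p read 6.23, 5.77, 5.82 and 6.31 in the same sham mice and 6.15, 5.65, 5.65 and 5.95 in the same DMM mice. mmu-miR-196a-5p read 6.61, 6.08, 5.90 and 6.48 in sham and 6.50, 6.47, 5.96 and 6.11 in DMM. For mmu-miR-196b-5p the sham mice read 6.55, 6.26, 5.83 and 6.17 and the DMM mice 6.32, 6.42, 5.86 and 5.99. The groups overlapped for all 4, and the differences were -0.03 for miR-10a (95% interval -0.59 to 0.52), -0.19 for miR-10b (-0.77 to 0.40), -0.01 for miR-196a (-0.74 to 0.72) and -0.05 for miR-196b (-0.78 to 0.67). The limma adjusted p was 0.998 for each, and 0% of rows were called, with 2 at an unadjusted p under 0.05. In 0.204% of rows every DMM mouse lay below every sham mouse, and in 0.204% above. These intervals are wide enough to hold the differences measured in cartilage.

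Sham bone read lower at 6 wk than at 1 wk in the means of all 4, without a call. The difference was -0.70 ± 0.26 (SE) for miR-10a (95% interval -1.25 to -0.14; limma adjusted p = 0.414), -0.61 for miR-196a (-1.34 to 0.12; 0.414), -0.46 for miR-196b (-1.19 to 0.26; 0.509) and -0.45 for miR-10b (-1.04 to 0.14; 0.439). Without mouse 96 the difference was -0.44 for miR-10a, -0.36 for miR-196a, -0.16 for miR-196b and -0.21 for miR-10b. Without mouse 68 it was -0.93, -0.89, -0.75 and -0.70 in that order. Of all 490 rows 0% were called, with 54 at an unadjusted p under 0.05. Array weights brought miR-10a (-0.84, limma adjusted p = 0.00830) and miR-196a (-0.71, 0.0372) past the threshold. They did so for 140 of all 490 rows, and their estimation stopped before its tolerance in bone. With each array's score on the main axis of variation between bone arrays as a covariate, the differences were -0.50 for miR-10a, -0.33 for miR-196a, -0.18 for miR-196b and -0.24 for miR-10b, without a call.

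Whether the DMM effect differed between tissues was tested over the 359 shared rows. The cartilage effect minus the bone effect at 1 wk was -0.65 for miR-196b (95% interval -1.53 to 0.23), -0.47 for miR-196a (-1.37 to 0.42), -0.23 for miR-10b (-0.96 to 0.51) and 0.07 for miR-10a (-0.61 to 0.75). At 6 wk it lay between -0.42 (miR-10a; -1.10 to 0.26) and -0.24 (miR-10b; -0.97 to 0.50). No member of either pair passed at either time (limma adjusted p of 0.537 to 0.982), against 0.279% of rows at 1 wk and 0.557% at 6 wk. The calls in cartilage and their absence in bone are therefore not shown to be a difference between the tissues.

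The rows of a pair followed each other to different degrees. miR-196a and miR-196b had a Pearson r of 0.95 over the 12 cartilage arrays and 0.97 over the 16 bone arrays, and 0.82 and 0.97 on deviations from group means. miR-10a and miR-10b had r = 0.46 in cartilage and 0.84 in bone, and on deviations from group means -0.61 in cartilage and 0.81 in bone. How far single arrays set these values was not tested. These are descriptions over arrays that share tissue and operation, and each array gives both values.

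By the rule of the 3 highest Pearson correlations per tissue, the rows most like miR-196a in cartilage were miR-30e-3p (r = 0.95), let-7c-5p (0.95) and miR-196b (0.95). Those most like miR-196b were miR-28a-5p (0.96), let-7c-5p (0.96) and miR-196a (0.95). miR-10a was closest to miR-378b (0.91), miR-15b-5p (0.86) and miR-26b-5p (0.85), and miR-10b to miR-210-3p (0.82), miR-26a-5p (0.75) and miR-148a-3p (0.74). In bone the closest rows were miR-196b (0.97), miR-100-5p (0.97) and miR-151-5p (0.96) for miR-196a, and miR-143-3p (0.98), miR-196a (0.97) and miR-22-3p (0.97) for miR-196b. They were miR-146b-5p (0.95), miR-221-3p (0.94) and miR-340-3p (0.91) for miR-10a, and miR-100-5p (0.96), miR-196a (0.94) and miR-99b-5p (0.93) for miR-10b. On deviations from group means the 3 closest rows in bone shared 3 for miR-196a and miR-10b, 2 for miR-196b and 1 for miR-10a. In cartilage they shared 0 for each miRNA, so which rows were closest there depended on the differences between groups. High correlations were common in bone, where between 12.3% and 18.4% of the other 489 rows had r above 0.8 with each miRNA. In cartilage this share was 10.8% for miR-196a and 12.6% for miR-196b, but 1.83% for miR-10a and 0.229% for miR-10b.

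All 4 miRNAs varied along the main axis of variation between bone arrays. The axis was the first principal component of the bone values after each group's mean was taken off, built over 355 shared rows without the 4 miRNAs, and it held 62.2% of the remaining variance. Across the 16 bone arrays the score correlated with miR-196a at r = -0.85, miR-196b at -0.87, miR-10b at -0.80 and miR-10a at -0.78. The share of other rows that followed the axis as closely was not counted, so this is not shown to be particular to the 4. Mouse 96 had the lowest score (-9.87) and mice 68 (9.87) and 22 (9.91) the highest, and sham and DMM overlapped at both times. Applied to the 12 cartilage arrays, the score correlated with miR-196b at -0.94, miR-196a at -0.93, miR-10a at -0.84 and miR-10b at -0.45, as a description over arrays that share their processing.

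In cartilage the score moved with the operation. At 1 wk it ran from -1.50 to -0.87 in sham and from 2.63 to 4.09 in DMM, and at 6 wk from -3.15 to -2.19 in sham and from -1.53 to 1.77 in DMM. Pool 3 of DMM at 6 wk, the one whose miR-196a lay in the sham range, had the lowest DMM score. With the score (from all 359 shared rows) as a covariate, the 1 wk differences were -0.03 for miR-196a, -0.32 for miR-196b and -0.13 for miR-10a, and the 6 wk differences 0.047, -0.14 and -0.31. Those of miR-10b were -0.82 and -0.84, larger in size than without the covariate. No call remained among the 4 (limma adjusted p of 0.311 to 0.960) or among all 438 rows at either time, with 10 rows at an unadjusted p under 0.05 at 1 wk and 20 at 6 wk. Score and operation cannot be told apart in cartilage at either time, because their groups do not overlap on it.

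**Figure D4:**
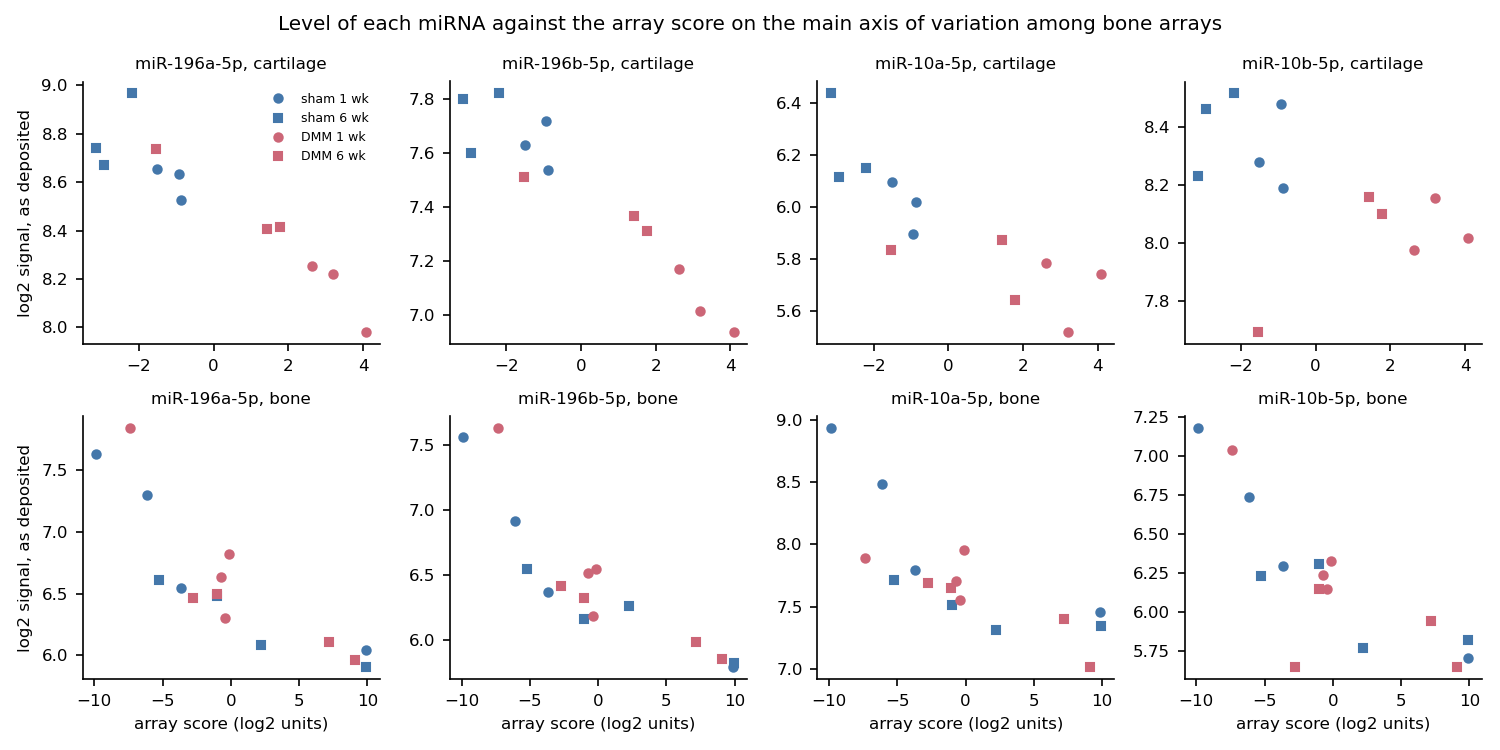
Log2 signal of each miRNA (y axis) against the array score on the main axis of variation among bone arrays, built without the 4 miRNAs (x axis, log2 units), in the 12 cartilage arrays (top) and the 16 bone arrays (bottom). Blue marks sham, red DMM, circles 1 wk and squares 6 wk. All panels slope downward, most loosely for miR-10b in cartilage (r = -0.45), and the operations are separated along the score at each time in cartilage but not in bone.

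Among the sequence relatives, 5 of the 9 let-7 rows listed fell in cartilage at 1 wk and 0 rose, with a median difference of -0.39, where 12.1% of all rows were called lower and 15.8% higher. They were let-7a-5p (-0.46), let-7b-5p (-0.46), let-7c-5p (-0.48), let-7f-5p (-0.39) and miR-98-5p (-0.49), with limma adjusted p of 0.00809 to 0.0499. let-7 miRNAs are known as repressors of growth-promoting mRNAs. All 5 are among the 8 rows with the 7 letters of the miR-196 seed. The other 3 of these 8 did not pass, at -0.27 for let-7d-5p (limma adjusted p = 0.0838), -0.26 for let-7g-5p (0.0859) and 0.02 for let-7i-5p (0.955), and neither did let-7e-5p, which lacks the letters (-0.02, 0.916). At 6 wk 1 of 9 fell, let-7d-5p (-0.37, limma adjusted p = 0.0399), with a median of -0.25, and this share is near the 7.31% of all rows called lower. Of the 3 miR-99 and miR-100 rows, 1 fell at 1 wk, miR-99a-5p (-0.33, limma adjusted p = 0.0309), and 1 at 6 wk, miR-100-5p (-0.51, 0.0288), which shares the 11-base run with miR-10a. Of all rows 12.1% were called lower at 1 wk and 7.31% at 6 wk. In bone 0 of these 12 rows were called at either time. Of the 7 other arms of Hox cluster miRNAs listed, the 3p arms of both families and both arms of miR-615, none was among the rows used here.

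Marker miRNAs of other cell types were set beside these results, and their counts stand beside 12.1% of all rows called lower and 15.8% higher at 1 wk, and 7.31% and 9.59% at 6 wk. At 1 wk in cartilage 1 of 4 cartilage markers fell, miR-455-5p (-0.40, limma adjusted p = 0.0457), and their summed log2 signal was 13.94 to 14.22 in sham and 13.69 to 14.03 in DMM. At 6 wk it was 13.99 to 14.06 in sham and 13.61 to 13.85 in DMM, with 0 of 4 called. Of 7 blood and marrow markers 4 were measured in cartilage, and 0 of them changed at 1 wk. At 6 wk 3 of the 4 fell, and their summed log2 signal was 9.25 to 10.86 in sham and 8.49 to 9.29 in DMM, while DMM and sham at 1 wk lay between 8.31 and 9.16. Among 4 muscle markers 1 rose at 1 wk, miR-206-3p (0.53, limma adjusted p = 0.0107), and 1 at 6 wk. The other 3 had differences below 0 at 1 wk without a call, at -0.73 for miR-133a-3p, -0.78 for miR-133b-3p and -0.97 for miR-1a-3p (limma adjusted p of 0.145 to 0.267), and the summed muscle signal was 7.76 to 8.82 in sham and 7.51 to 7.82 in DMM. The 1 endothelial and 3 fibroblast or mesenchymal markers measured had 0 calls at both times. The part of these cell types in the differences of miR-196 and miR-10 was not tested.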

How the data were processed

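The deposited table holds 1 value per miRNA and array. Per its range and the submitters' processing notes, which name limma 3.20.9, the deposited values were taken as log2 signals and used as they are. How background was corrected, values normalized and rows filtered was not given in the sources used here. Rows with a value on every array numbered 438 in cartilage, 490 in bone and 359 in both, so rows had been filtered per tissue. No column of sample values was left unused (0).

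Group-means models were fitted per tissue with limma 3.58.1 in R 4.3.3 (lmFit, contrasts.fit, eBayes), and over all 28 arrays for differences between tissues, where arrays were treated as independent; the labels say that both tissues were isolated from the same mouse but do not tie pools to bone mice. The 10 comparisons were each adjusted by Benjamini-Hochberg over all rows tested, with a threshold of 0.05. The fit was tested on simulated data in which each row was drawn independently, which leaves out variation that rows share. The spread behind a p-value is that of pools for cartilage and of mice for bone, and the number of arrays limits the precision. The text names the 4 miRNAs, listed relatives that were called or among the 2 largest of their list, listed markers, and the 3 closest rows per miRNA and tissue. The miRNAs and lists were chosen with earlier results of these data known. let-7d-5p at 1 wk, let-7e-5p, let-7g-5p and let-7i-5p were named after their values were seen. Sequences come from RefSeq GRCm38.p6. Alternatives were array weights, quantile normalization, a row filter at the median level, centring on the 75th percentile, the groups of a comparison alone, a replicate block, the score covariate and leaving out each array. Both scalings of the tissue levels were added after seeing the data.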

Additional observations from a re-analysis of the deposited data

How the results depend on the processing

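Differences here are DMM minus sham on the log2 scale unless said otherwise. In cartilage the direction of all 8 differences held under quantile normalization, centring on the 75th percentile and array weights. At 75th-percentile centring miR-10a at 1 wk (-0.41) and miR-10b at 6 wk (-0.46) became called. Array weights did so for miR-10a at 1 wk (-0.40) and for miR-196a (-0.38) and miR-10b (-0.41) at 6 wk. Weights also moved the rows called to 189 in cartilage at 6 wk, 68 for sham over time in cartilage, 38 and 54 in bone at 1 and 6 wk, 140 for sham over time in bone, and 52 and 32 for the difference between tissues. Their estimation stopped before its tolerance in 2 of 3 fits, that of bone and that of both tissues together, but not in that of cartilage. Under weights miR-10a in bone at 1 wk became called (-0.66), and these turned sign: in bone at 1 wk miR-196a (-0.52) and miR-196b (-0.35), in the change of the bone effect between times miR-196a (0.18), miR-196b (0.10) and miR-10b (0.0056), and in the tissue difference at 1 wk miR-196a (0.067) and miR-10b (0.19).

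Leaving out rows below the median level left 54 and 40 rows called in cartilage at 1 and 6 wk and 1 for the tissue difference at 6 wk, ended the call of miR-196b at 6 wk (-0.34), and gave no value for miR-10a in cartilage or miR-10b in bone. The groups of a comparison alone gave 29 rows at 6 wk and ended the calls of miR-196b (-0.34) and miR-10a (-0.45). With the replicate block 43 rows were called at 6 wk, and the same calls were lost for miR-196b (-0.34, limma adjusted p = 0.0909) and miR-10a (-0.45, 0.0567), while both calls at 1 wk held. Same-numbered pools did not deviate together (r of 0.033, -0.39 and -0.37 at 1 wk and -0.45, -0.48 and -0.037 at 6 wk). With so few pools this check gave no sign of pairing by number but cannot exclude it. For sham over time in cartilage, 0 rows were called under the row filter, the groups alone, the block or the covariate, in place of 1, and for the change of the cartilage effect 1 row in place of 0 under quantile normalization, the row filter and weights.

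With the score covariate 0 rows were called in cartilage at either time and 10 for the tissue difference at 1 wk. At 1 wk miR-196a (-0.029) and miR-196b (-0.32) lost their calls, and at 6 wk miR-196b (-0.14) and miR-10a (-0.31), while miR-196a turned to 0.047. In bone at 6 wk miR-196a (0.10), miR-196b (0.062) and miR-10a (0.048) turned sign, as did the change of the bone effect of miR-196a (0.063). Quantile normalization and 75th-percentile centring turned miR-10b in bone at 1 wk (0.043 and 0.098) and the tissue difference of miR-10a at 1 wk (-0.19 and -0.11). The cause of these changes was not tested.

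With 1 array left out, cartilage rows called ran from 42 to 141 at 1 wk and from 20 to 166 at 6 wk, sham over time from 0 to 9 in cartilage and 0 to 5 in bone, and the change of the cartilage effect from 0 to 1. miR-196a at 1 wk ran from -0.50 to -0.37, and at 6 wk miR-196b from -0.41 to -0.30 and miR-10a from -0.51 to -0.35. In bone at 1 wk the ranges were -0.30 to 0.27 for miR-196a, -0.24 to 0.36 for miR-196b and -0.30 to 0.19 for miR-10b. In bone at 6 wk they were -0.14 to 0.10 for miR-196a, -0.18 to 0.061 for miR-196b and -0.12 to 0.11 for miR-10a. The change of the bone effect ran from -0.28 to 0.28 for miR-196a, -0.41 to 0.19 for miR-196b and -0.38 to 0.11 for miR-10b, and the tissue difference at 1 wk from -0.18 to 0.31 for miR-10a and -0.46 to 0.032 for miR-10b. Signal over background was not analysed here. miR-10a in cartilage, with a mean below the array medians, had the lowest mean over a tissue. At 6 wk the bone group means of miR-196a, miR-196b and miR-10b ran from 5.85 to 6.27. They lay within or below the range of bone array medians, 6.17 to 6.39.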
